A study of Mus musculus with 8 samples.

Results

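The Hox genes of the mouse cervical spinal cord were described on 8 expression arrays. A member was any gene whose symbol is Hox followed by a, b, c or d and a number up to 13, with antisense genes left out. A probe set that the array annotation assigns to such a symbol alone was found for 37 genes. Of these, 10 belong to Hoxa, 9 to Hoxb, 9 to Hoxc and 9 to Hoxd, and each had 1 such probe set. All 37 passed a filter on dim genes, set at the 30th percentile of the probe sets' mean signals (4.30), and 16026 genes were tested in all. Hoxb8 is listed only on a probe set shared with Hoxb7, which read 8.60 to 8.93 over the 8 arrays and was kept out.

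The animals were 6-week-old male C57BL/6 mice in 4 groups of 2 arrays each. Acupoint mice received daily intraperitoneal MPTP at 20 mg/kg for 4 weeks, with manual needling of GB34 to 3 mm and LR3 to 1 mm, on both sides, in 14 sessions. Non-acupoint mice received the same MPTP and 14 sessions of needling to 3 mm at both hips. MPTP mice received MPTP without needling, and control mice received saline. MPTP is a toxin that kills midbrain dopamine neurons and is used to model parkinsonism. Array titles number a mouse for each array, the protocol counts 9 mice in the MPTP group and 9 in the control group, and nothing in the labels says whether RNA was pooled. The p-values therefore measure only how these samples vary, and part of that may be technical.

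Hox genes encode homeodomain transcription factors that set position along the head-to-tail axis. The order of the genes along each of the 4 clusters matches the order of their embryonic domains, and genes of the same number in different clusters are called paralogs. In the mouse embryo low numbers are active up to the hindbrain, paralogs 4 to 8 mark cervical and brachial cord, paralog 9 marks thoracic cord, and paralogs 10 to 13 mark lumbar and sacral cord. There they specify motor neuron columns and pools, together with TALE-class partners such as Pbx and Meis, and Polycomb and Trithorax complexes keep each gene silent or active afterwards. A signal below is the RMA value on the log2 scale. Signals of different genes come from different probes and are not on a common scale, so differences were taken only within a gene, across arrays. Where mean signals are set against a percentile or ordered within a cluster, this describes the probe sets and not amounts of RNA.

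The results below turn on Hoxd10 and Hoxd11, which were low together on 1 array, and on Hoxd3 and Hoxd4, which were lower in every MPTP-treated sample than in control. Their promoters are shown so that the start regions of these neighbours can be read side by side. Each is the RefSeq sequence (GRCm38.p6, 5′ to 3′) of the 250 bases before a listed start, with capitals on any match to TGATNNAT (a Hox-Pbx type site), TTTATG (a Cdx type site) or TAATTA (the homeodomain core), searched on both strands.
Hoxd10 (chr2:74691641-74691890, + strand): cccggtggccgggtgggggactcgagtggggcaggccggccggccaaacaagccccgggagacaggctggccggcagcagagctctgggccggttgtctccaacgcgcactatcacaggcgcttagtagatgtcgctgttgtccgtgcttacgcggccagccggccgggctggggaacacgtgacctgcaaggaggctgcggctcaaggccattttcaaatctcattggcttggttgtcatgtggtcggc
Hoxd11, first listed start (chr2:74679308-74679557, + strand): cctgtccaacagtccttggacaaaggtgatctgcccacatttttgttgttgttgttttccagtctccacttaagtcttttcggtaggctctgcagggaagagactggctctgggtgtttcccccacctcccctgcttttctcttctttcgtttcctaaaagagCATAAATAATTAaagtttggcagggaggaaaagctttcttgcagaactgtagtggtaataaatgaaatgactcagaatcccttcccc
Hoxd11, second listed start (chr2:74682073-74682322, + strand): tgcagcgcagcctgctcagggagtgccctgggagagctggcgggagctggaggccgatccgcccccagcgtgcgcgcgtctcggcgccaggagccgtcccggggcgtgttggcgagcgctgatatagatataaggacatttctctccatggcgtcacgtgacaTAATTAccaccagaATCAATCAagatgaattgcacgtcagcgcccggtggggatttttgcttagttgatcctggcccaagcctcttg
Hoxd3 (chr2:74711743-74711992, + strand): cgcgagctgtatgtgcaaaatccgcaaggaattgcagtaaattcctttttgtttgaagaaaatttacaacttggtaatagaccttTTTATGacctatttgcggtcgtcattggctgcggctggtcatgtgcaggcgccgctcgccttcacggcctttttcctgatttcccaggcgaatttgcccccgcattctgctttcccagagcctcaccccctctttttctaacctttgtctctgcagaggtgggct
Hoxd4 (chr2:74721728-74721977, + strand): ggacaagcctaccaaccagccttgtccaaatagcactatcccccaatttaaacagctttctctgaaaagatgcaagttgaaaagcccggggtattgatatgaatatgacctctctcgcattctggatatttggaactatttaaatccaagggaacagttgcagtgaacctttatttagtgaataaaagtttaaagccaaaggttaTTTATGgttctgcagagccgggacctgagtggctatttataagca
In the first Hoxd11 window a TTTATG match on the opposite strand, 87 bases before the start, is directly followed by TAATTA. The second Hoxd11 window holds TAATTA 87 bases before the start and a TGATNNAT match 73 bases before it. The Hoxd3 and Hoxd4 windows each hold 1 TTTATG match, 165 and 45 bases before the start, and the Hoxd10 window holds none of these letters. In RefSeq the Hoxd4 window overlaps the span of Hoxd3, and the Hoxd3 window overlaps that of the opposite-strand gene Hoxd3os1. TGATNNAT occurred in 4 of 24 windows of 22 Hox genes and in 7.68% of all 32851 promoter windows of this length. For TTTATG these were 5 of 24 and 10.8%, and for TAATTA 2 of 24 and 4.84%. A match is a description of letters, not a site shown to be bound.

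Each marker mean was first compared across arrays, which shows how alike the arrays are but cannot check the tissue label they share. The mean signal of 11 spinal cord markers was 9.60 to 10.03 over the 8 arrays, and that of 6 forebrain markers was 5.06 to 5.20. The 2 means are not compared with each other. The arrays also differed outside the Hox genes. The mean of 16 skeletal muscle markers was 6.64 and 5.25 on the acupoint arrays, 5.17 and 5.56 on the non-acupoint arrays, 5.46 and 5.40 on the MPTP arrays, and 7.16 and 8.65 on the control arrays. The median of probe sets with no gene symbol was 4.25 to 4.39 on the 6 MPTP-treated arrays and 4.75 on both control arrays. The Schwann cell mean was 8.72 on acupoint replicate 1 and 8.80 on control replicate 1, and 7.21 to 8.16 on the others. The mean of markers of meninges and fibroblasts was 8.52 and 8.40 on these arrays, and 6.52 to 7.87 on the others. Non-acupoint replicate 2 stood far above the other 7 arrays for the adipose genes Fabp4 and Ucp1, by 4.06 and 3.52. The part of these differences in the Hox results was not tested, apart from a fit with the muscle mean as a covariate. In whole tissue, fewer cells of a type and less RNA per cell cannot be told apart.

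The mean signal of each probe set was placed against the 50th percentile over the probe sets (5.66), which describes how far it was read above the dim probe sets and not how much RNA a gene made. All 14 members of paralogs 4 to 8 lay above it, with means of 6.08 (Hoxb4) to 9.55 (Hoxc8). Among paralogs 1 to 3, 4 of 7 were above it, and among paralogs 9 to 13, 8 of 16 were. The 8 were Hoxa9, Hoxb9, Hoxc9, Hoxd9, Hoxa10, Hoxc10, Hoxd10 and Hoxd11. All members of paralogs 12 and 13 lay below that percentile, with means of 4.58 (Hoxd12) to 4.99 (Hoxd13). Hoxa10, Hoxc10 and Hoxd10 were thus read above the 50th percentile, although their embryonic domains lie in the lumbar cord. The labels give only the word cervical for every array, and which segments each piece of cord held was not tested.

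Among the members with the highest mean signal in their cluster, 4 trunk genes are given here. Hoxa7, a trunk patterning gene, read 8.42 and 8.47 on the acupoint arrays, 8.61 and 8.58 on the non-acupoint arrays, 8.44 and 8.52 on the MPTP arrays, and 8.48 and 8.62 on the control arrays. Its whole range was 0.20. The non-acupoint arrays lay above the acupoint and MPTP arrays, the acupoint arrays lay below the control arrays, and the other pairs of groups overlapped. Hoxb9, a thoracic patterning gene, read 8.46 and 8.74 on the acupoint arrays, 8.71 and 8.54 on the non-acupoint arrays, 8.43 and 8.52 on the MPTP arrays, and 8.43 and 8.35 on the control arrays. The arrays of all 3 MPTP groups lay above both controls for Hoxb9, the MPTP group by the least, and its range was 0.39. Hoxb6 read 8.02 and 8.05 on the acupoint arrays, 8.00 and 7.77 on the non-acupoint arrays, 7.96 and 8.13 on the MPTP arrays, and 8.04 and 8.13 on the control arrays. Non-acupoint replicate 2 was the lowest for Hoxb6, and the other 7 arrays lay between 7.96 and 8.13. Hoxc9, which in the embryo sets the thoracic motor column, read 7.50 and 7.76 on the acupoint arrays, 7.50 and 7.20 on the non-acupoint arrays, 7.46 and 7.33 on the MPTP arrays, and 7.80 and 7.53 on the control arrays. The MPTP arrays lay below the acupoint and control arrays for Hoxc9, the non-acupoint arrays lay below the control arrays, and its range was 0.59. Over all 37 members the median range was 0.60, against 0.46 over all genes tested.

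The largest Hox differences separated 1 array, non-acupoint replicate 1, from the other 7. Hoxd10, which with its paralogs specifies lumbar motor neurons in the mouse embryo, read 9.07 and 8.79 on the acupoint arrays, 4.58 and 8.35 on the non-acupoint arrays, 8.71 and 8.79 on the MPTP arrays, and 8.77 and 7.64 on the control arrays. Non-acupoint replicate 1 was thus 3.05 below the next array. Its 4.58 was close to the median of probe sets without a symbol on that array (4.25), so this gap is a lower bound. Hoxc10, another lumbar paralog, read 7.61 and 7.83 on the acupoint arrays, 5.18 and 7.06 on the non-acupoint arrays, 7.34 and 7.48 on the MPTP arrays, and 7.49 and 7.24 on the control arrays. Non-acupoint replicate 1 was again the lowest, by 1.87. Hoxd11, a paralog known for its roles in forearm and kidney development, read 7.24 and 6.93 on the acupoint arrays, 5.31 and 6.59 on the non-acupoint arrays, 7.35 and 7.16 on the MPTP arrays, and 7.52 and 6.52 on the control arrays. Hoxa10, a lumbar patterning gene, read 6.97 and 6.88 on the acupoint arrays, 5.66 and 6.61 on the non-acupoint arrays, 6.85 and 6.88 on the MPTP arrays, and 6.91 and 6.68 on the control arrays. For these genes too non-acupoint replicate 1 was the lowest, by gaps of 1.21 and 0.94.

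When all 16026 genes were ranked by how far non-acupoint replicate 1 lay below the nearest other array, Hoxd10, Hoxc10, Hoxd11 and Hoxa10 were ranked 1 to 4. The gene ranked 5, Olfr527, had a gap of 0.78. These 4 kept ranks 1 to 4 when the arrays were quantile normalised again, aligned by cyclic loess or centred on their medians, with Hoxd10 gaps of 2.87 to 3.20. Hoxa11, the remaining paralog 11 member of the Hoxa cluster, ranked 15 with a gap of 0.44, and 31 to 196 under the other scalings. Hoxa11 read 5.46 and 5.30 on the acupoint arrays, 4.12 and 5.28 on the non-acupoint arrays, 5.44 and 5.52 on the MPTP arrays, and 5.46 and 4.56 on the control arrays. This ranking was chosen after the values were seen, and a single array allows no test of its own.

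**Figure D1:**
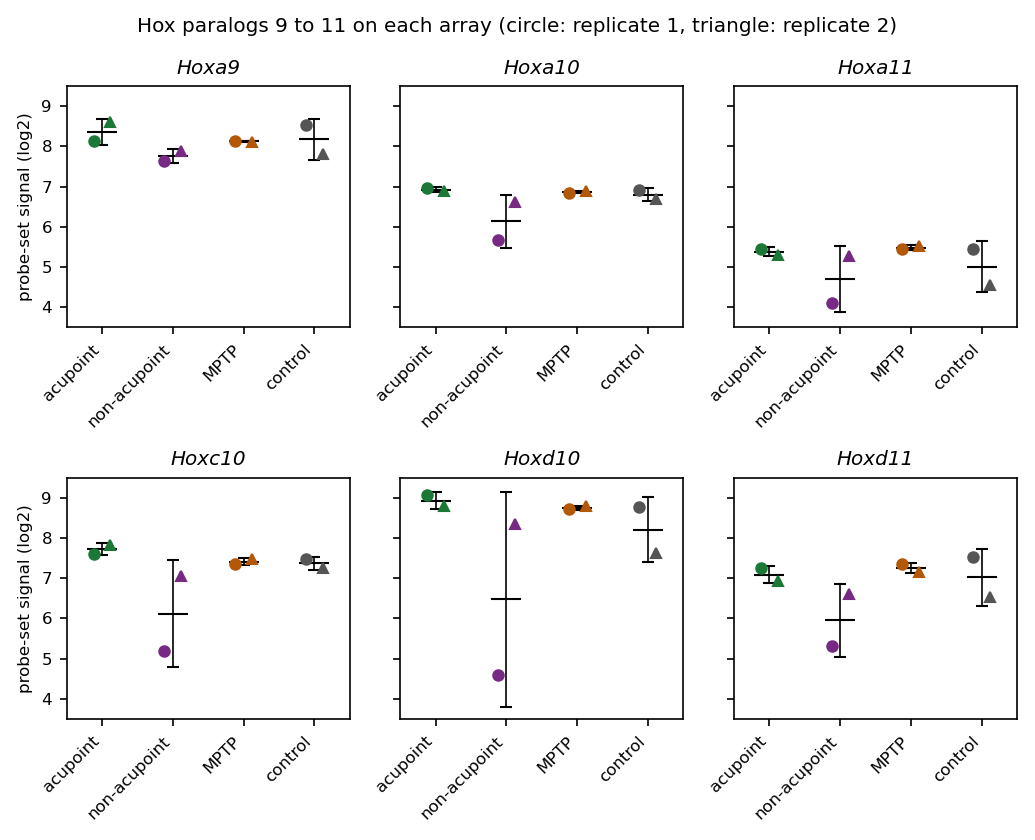
RMA signal (log2) of 6 Hox genes of paralogs 9 to 11 on each array, by group, with circles for replicate 1, triangles for replicate 2, and a dash and bar for the mean and SD of the 2 arrays. Non-acupoint replicate 1 is the lowest point in every panel, at 4.58 for Hoxd10 against 7.64 or more on the other arrays.

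The low signal of non-acupoint replicate 1 followed paralog number rather than cluster. It was the lowest of the 8 arrays for 12 of 37 Hox genes, against 10.7% of all genes tested, and 9 of the 12 were paralogs 9 to 13. They were Hoxa9, Hoxa10, Hoxa11, Hoxb13, Hoxc10, Hoxc12, Hoxd9, Hoxd10 and Hoxd11. It was the highest of the 8 for 6 Hox genes, against 16.5% of all genes, and all 6 were paralogs 4 to 8 (Hoxa5, Hoxa6, Hoxb7, Hoxc5, Hoxc6 and Hoxc8). Measured from the median of the other 7 arrays, its median difference was -0.06 over paralogs 1 to 3, 0.07 over paralogs 4 to 8 and -0.63 over paralogs 9 to 13. In all, 10 of 37 Hox genes were more than 0.5 below, against 0.749% of all genes tested, and the 10 were all among the 16 members of paralogs 9 to 13. Hoxb9, at 8.71, lay above that median by 0.25, Hoxc9 was at 7.50, and of the dim paralog 12 and 13 members only Hoxb13 and Hoxc12 were among the 10. The marker means of this array for spinal cord, forebrain (5.09) and hindbrain (4.55) were each within the range of the other arrays. Its erythroid mean was the highest of the 8 at 7.86, and its muscle (5.17) and dorsal root ganglion (4.73) means were the lowest. The part of these in its Hox signals was not tested.

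2 other arrays had lower paralogs 9 to 13 to a smaller degree. On control replicate 2 the median difference of these 16 members from the other 7 arrays was -0.22, and 5 of them were more than 0.5 below, including Hoxd10 at 7.64 and Hoxd11 at 6.52. No other Hox gene was that far below on this array, where 8.8% of all genes tested were. On non-acupoint replicate 2 it was -0.25, with 2 of 16 more than 0.5 below, against 0.206% of all genes. Hoxc11 was lowest on control replicate 2, with 5.31 and 4.91 on the acupoint arrays, 4.09 and 4.66 on the non-acupoint arrays, 5.32 and 4.89 on the MPTP arrays, and 5.20 and 3.85 on the control arrays. For this gene 4 of the 6 MPTP-treated values lay between the control arrays. On control replicate 1 the paralogs 9 to 13 had a median of 0.19, the highest of the 8 arrays. That array also had the highest mean of dorsal root ganglion markers, 5.63 against 4.73 to 4.996 on the others, and the highest Schwann cell mean, and the part of these in its Hox signals was not tested.

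**Figure D2:**
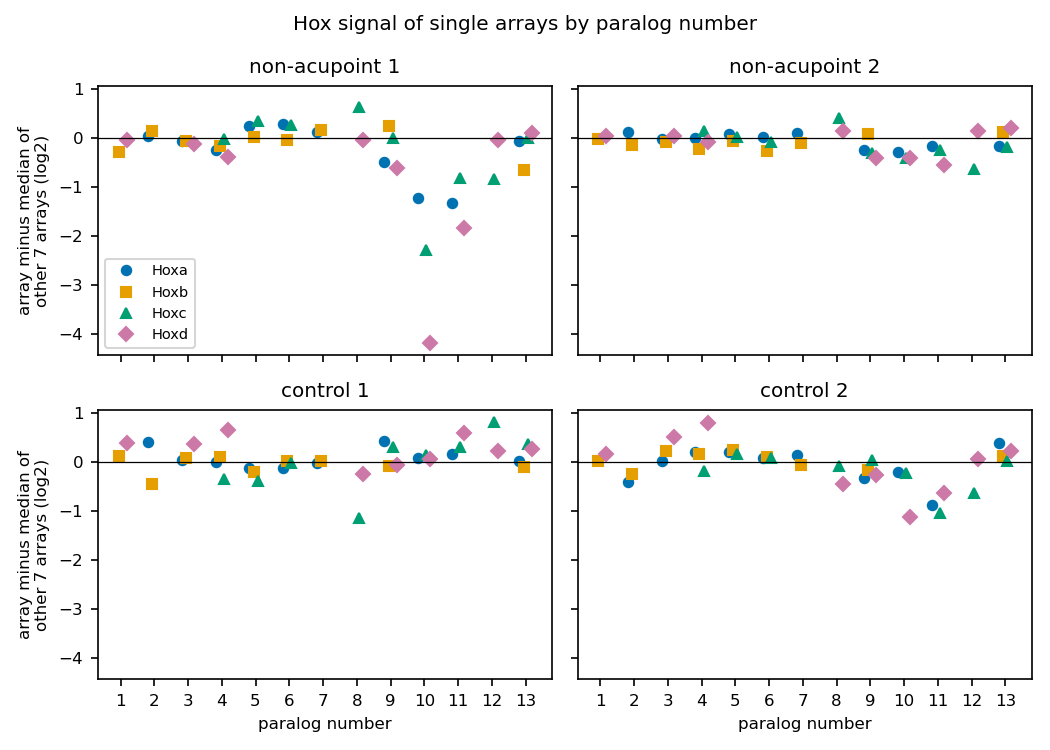
Difference of single arrays from the median of the other 7 arrays (log2) for each Hox gene, plotted by paralog number, with a colour and symbol for each cluster. On non-acupoint replicate 1 the paralog 10 and 11 members reach from -0.82 to -4.19, and on the other panels no member lies below -1.16.

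9 of 37 Hox genes ranged over more than 1 across the 8 arrays, against 4.14% of all genes tested. They were Hoxa10, Hoxa11, Hoxc8, Hoxc10, Hoxc11, Hoxc12, Hoxd4, Hoxd10 and Hoxd11. Without non-acupoint replicate 1 the count was 5 of 37, against 3.6% of all genes. By paralog number, the median range was 0.49 for paralogs 1 to 3, 0.46 for paralogs 4 to 8 and 0.96 for paralogs 9 to 13, and 0.49, 0.43 and 0.70 without that array.

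**Figure D3:**
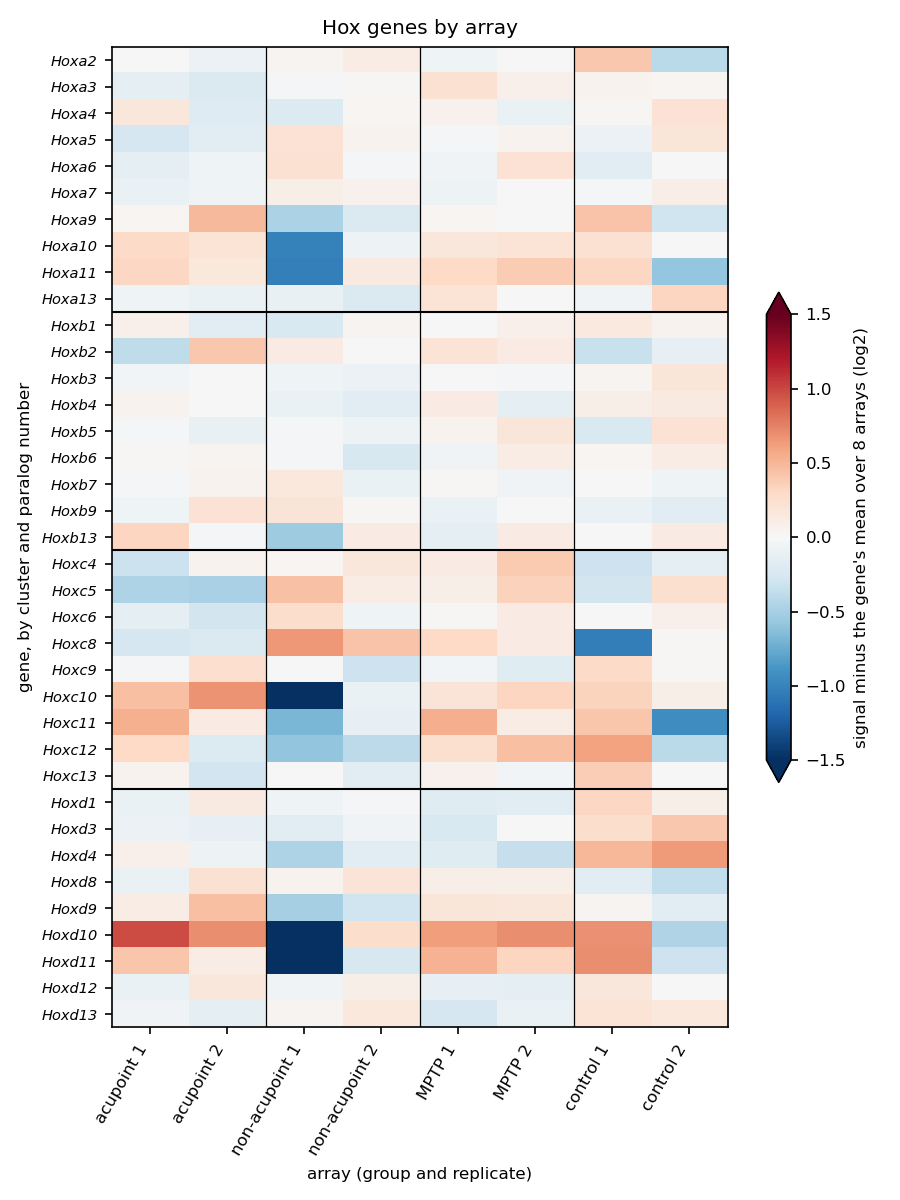
Signal of the 37 Hox genes on each array minus the gene's own mean over 8 arrays (log2, colour limited to 1.5 either way), with rows ordered by cluster and paralog number and columns by group. The darkest cells are on non-acupoint replicate 1 for Hoxc10, Hoxd10 and Hoxd11, and on control replicate 1 Hoxc8 is low.

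Acupoint needling was compared with MPTP alone and with hip needling, and hip needling with MPTP alone, which asks whether needling and its site went with a change in the cord. No Hox gene passed limma's test in these 3 comparisons, and 0% of all 16026 genes did, while 201 (acupoint minus MPTP), 273 (non-acupoint minus MPTP) and 604 genes (acupoint minus non-acupoint) had an unadjusted p under 0.05. The Hox genes with an unadjusted p under 0.05 numbered 3, 6 and 10 in the same order. For 15 of 37 Hox genes both arrays of one group lay above both of the other in acupoint minus MPTP, against 24.3% of all genes. The counts were 22 of 37 against 36.3% in non-acupoint minus MPTP, and 23 of 37 against 28.3% in acupoint minus non-acupoint. The counts for the comparisons with non-acupoint mice include the members that non-acupoint replicate 1 carried, while the count for acupoint minus MPTP does not use that array. Neighbouring Hox genes are not independent of one another.

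In both comparisons with the hips the direction of these differences went with paralog number. For acupoint minus non-acupoint the median difference was 0.57 over paralogs 9 to 13, where 13 of 16 were positive, and -0.10 over paralogs 4 to 8, where 10 of 14 were negative. The median over all genes tested was -0.001. For non-acupoint minus MPTP the medians were -0.47 and 0.02. For acupoint minus MPTP, which does not use the array that stood apart, they were 0.09 and -0.11. In acupoint minus MPTP the medians by cluster lay further apart, at -0.07 (Hoxa), -0.003 (Hoxb), -0.28 (Hoxc) and 0.10 (Hoxd). Hoxd9, a lower thoracic and lumbar paralog, had the smallest p of the Hox genes in both comparisons with the hips. It read 6.24 and 6.58 on the acupoint arrays, 5.64 and 5.84 on the non-acupoint arrays, 6.32 and 6.31 on the MPTP arrays, and 6.18 and 5.98 on the control arrays. The non-acupoint arrays were both below all others. The difference was 0.68 (SE 0.15, unadjusted p = 0.00126, limma adjusted p = 0.936) for acupoint minus non-acupoint and -0.57 (SE 0.15, limma adjusted p = 1.00) for non-acupoint minus MPTP, so neither passed.

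Hoxc5 and Hoxc4 had the smallest p-values in acupoint minus MPTP. Hoxc5, which with Hoxa5 maintains phrenic motor neurons in the mouse, read 6.33 and 6.31 on the acupoint arrays, 7.23 and 6.91 on the non-acupoint arrays, 6.89 and 7.14 on the MPTP arrays, and 6.52 and 7.04 on the control arrays. Both acupoint arrays were below all others, and the difference of -0.69 (SE 0.18) from MPTP had an unadjusted p of 0.00391 and a limma adjusted p of 1.00. Hoxc4, a gene of the cervical cord, read 6.30 and 6.66 on the acupoint arrays, 6.65 and 6.79 on the non-acupoint arrays, 6.74 and 7.01 on the MPTP arrays, and 6.31 and 6.48 on the control arrays. Its difference of -0.39 (SE 0.15) did not pass. Hoxa5, the bright partner of Hoxc5, read 8.16 and 8.26 on the acupoint arrays, 8.63 and 8.47 on the non-acupoint arrays, 8.40 and 8.47 on the MPTP arrays, and 8.33 and 8.60 on the control arrays. The acupoint arrays were again the lowest pair.

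The fitted group difference of Hoxd10 shows how far the hip comparison rests on 1 array. Hoxd10 averaged 6.47 ± 2.67 in non-acupoint mice and 8.75 ± 0.05 in MPTP mice (SD, n = 2 each), a difference of -2.28 (SE 0.92, limma adjusted p = 1.00). Without non-acupoint replicate 1 the difference was -0.40, also not called. Without non-acupoint replicate 2 the difference was -4.17, and that of Hoxc10 was -2.23. In acupoint minus non-acupoint the same omission gave 2.53 for Hoxc10 and 4.34 for Hoxd10. That fit keeps only the array for which these genes were singled out, and assumes that it varies like the other groups. It therefore cannot test them, and only the sizes are given.

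MPTP was compared with saline to see which genes differed with the toxin. Both control arrays also had a higher muscle mean (7.16 and 8.65, against 5.17 to 6.64 on the treated arrays). Their median of probe sets without a symbol was higher too (4.75, against 4.25 to 4.39). In these comparisons an effect of the toxin cannot be told apart from these differences. Most Hox genes did not pass. In MPTP minus control 2 of 37 passed limma's test, both lower, against 16.8% of all genes tested (13.7% higher and 3.1% lower). The 2 groups were fully separated for 14 of 37, against 64% of all genes, and the median difference was 0.01, with 0.06 over all genes. In acupoint minus control 1 of 37 passed, lower, against 11.7% of all genes (2.17% lower). In non-acupoint minus control 3 of 37 passed, against 19.2%, with 1 higher (15.4% of all genes) and 2 lower (3.87%). For the 3 MPTP groups averaged against control 4 of 37 passed, against 25.2% of all genes, with 2 higher (19.9% of all genes) and 2 lower (5.35%). These comparisons share the 2 control arrays, so their results are not independent of one another.

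Hoxd4 fell in all 4 comparisons with control. Hoxd4, known in the mouse embryo for its domain in the lower hindbrain and upper cervical cord, read 6.27 and 6.12 on the acupoint arrays, 5.74 and 6.04 on the non-acupoint arrays, 6.01 and 5.86 on the MPTP arrays, and 6.70 and 6.84 on the control arrays. Every MPTP-treated array lay below both control arrays. Separation from these controls was common, with 64% of all genes fully separated in MPTP minus control. The share of all genes for the 6 treated arrays together is not given here, for Hoxd4 or for Hoxd3 and Hoxd8 below. The differences were -0.57 (acupoint), -0.88 (non-acupoint) and -0.83 (MPTP), with an SE of 0.14 and limma adjusted p-values of 0.0326, 0.00508 and 0.00685. The call for MPTP alone was lost without either MPTP array or control replicate 2 (adjusted p = 0.0528 to 0.0748), and that for the acupoint mice without either MPTP array, acupoint replicate 2 or either control array (0.0608 to 0.174). The call for the acupoint mice held in 10 of 20 alternative fits, and was also lost with median centring, only the 2 groups, array weights, the replicate block or the muscle covariate (adjusted p = 0.0548 to 0.597). That for the non-acupoint mice was lost without their replicate 1 (-0.72, adjusted p = 0.0605). For the 3 groups together the difference was -0.76 (SE 0.12, limma adjusted p = 0.00225), and it passed in 19 of 20 alternative fits. The exception used the muscle marker mean as a covariate (-0.46, adjusted p = 0.516). That covariate also lost the calls for MPTP alone and for the non-acupoint mice (limma adjusted p = 0.576 and 0.589). In that fit 0 to 12 of all genes passed in the comparisons with control.

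Hoxd3, the neighbour of Hoxd4 in the cluster and a gene required for the first vertebrae of the neck, also fell. It read 6.09 and 6.05 on the acupoint arrays, 6.01 and 6.13 on the non-acupoint arrays, 5.95 and 6.17 on the MPTP arrays, and 6.44 and 6.58 on the control arrays. The 6 MPTP-treated arrays were all below the controls. The difference was -0.45 (SE 0.13, limma adjusted p = 0.0370) in MPTP mice and -0.44 (SE 0.13, adjusted p = 0.0378) in non-acupoint mice, while -0.44 in acupoint mice did not pass (adjusted p = 0.0508). The call in non-acupoint mice held in 10 of 20 alternative fits. It was lost without either MPTP, non-acupoint or control array (adjusted p = 0.0643 to 0.233), and with quantile normalisation, cyclic loess, median centring or the muscle covariate (0.0517 to 0.797). The call for MPTP alone held in 11 of 20 alternative fits. It was lost without either control, MPTP or non-acupoint array, with differences of -0.56 to -0.35 over the 8 fits that left out 1 array. Quantile normalisation, median centring and the muscle covariate also lost it (limma adjusted p up to 0.753). For the 3 groups together the difference was -0.45 (SE 0.10, limma adjusted p = 0.0125), and the call held in 17 of 20 alternative fits. It was lost with median centring, with the muscle covariate and without control replicate 2, where the difference was -0.38. The median of probe sets without a symbol was also lower on the treated arrays (4.25 to 4.39) than on the control arrays (4.75). The part of this shift in the Hoxd3 difference was not tested. Hoxd1, the remaining low-numbered Hoxd gene, read 5.34 and 5.34 in MPTP mice and 5.83 and 5.60 in controls, a difference of -0.37 that did not pass (limma adjusted p = 0.103).

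2 paralog 8 genes were higher in the MPTP groups than in control. Hoxd8, a trunk gene, read 7.88 and 8.21 on the acupoint arrays, 8.03 and 8.17 on the non-acupoint arrays, 8.07 and 8.07 on the MPTP arrays, and 7.80 and 7.61 on the control arrays. Every treated array was above both controls. It rose by 0.37 in the 3 groups together (SE 0.10, limma adjusted p = 0.0262) but did not pass in any single group. That call was lost without either MPTP array, non-acupoint replicate 2 or control replicate 2, where the difference was 0.27 (adjusted p = 0.0610 to 0.230). Cyclic loess also lost the call, which held in 14 of 20 alternative fits. With the muscle marker mean as a covariate the difference was -0.01 (limma adjusted p = 0.995).

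Hoxc8, which specifies motor pools of the brachial cord in the mouse, read 9.30 and 9.33 on the acupoint arrays, 10.19 and 9.97 on the non-acupoint arrays, 9.84 and 9.66 on the MPTP arrays, and 8.51 and 9.57 on the control arrays. Control replicate 1 was the lowest by 0.79, the second largest such gap of all genes on that array, and control replicate 2 lay above both acupoint arrays. Hoxc8 rose by 1.05 in non-acupoint mice (SE 0.26, limma adjusted p = 0.0238) and by 0.68 in the 3 groups together (SE 0.21, adjusted p = 0.0443). Without control replicate 1 these were 0.52 (adjusted p = 0.0281) and 0.15 (adjusted p = 0.374), and without control replicate 2 they were 1.58 and 1.21. The call in non-acupoint mice held in 16 of 20 alternative fits. It was lost without either of their arrays, and with cyclic loess or the muscle covariate (limma adjusted p up to 0.291 in the last 2). That for the 3 groups together held in 9 of 20 alternative fits.

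**Figure D4:**
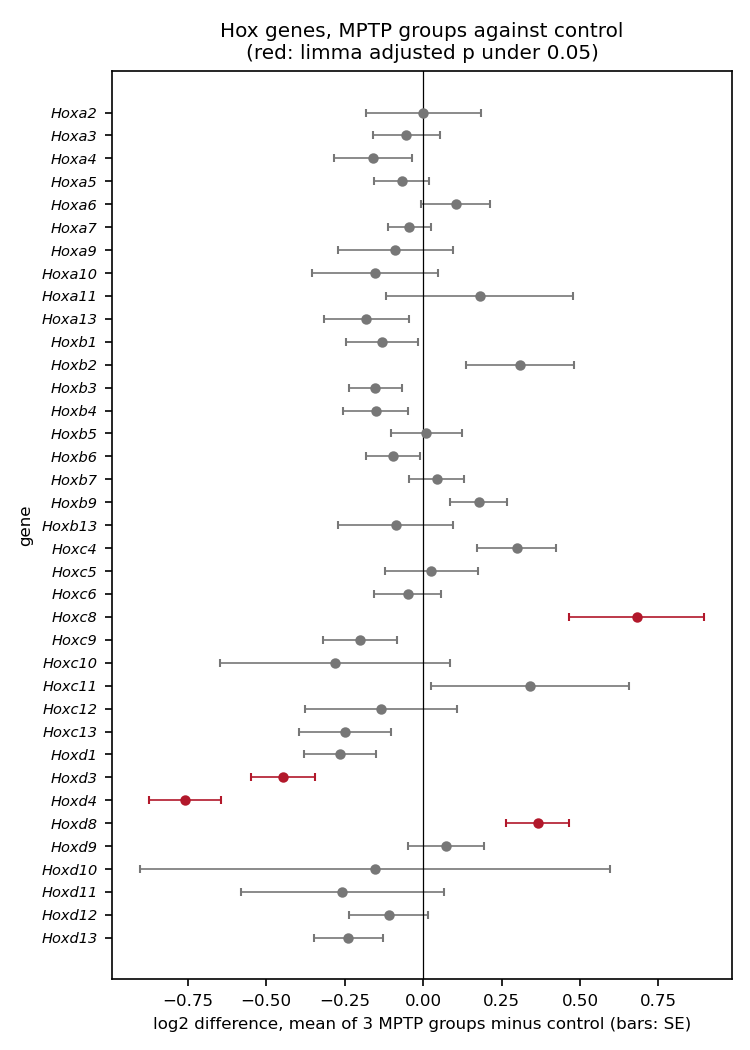
Difference of each Hox gene between the mean of the 3 MPTP groups and control (log2, points) with its SE (bars), by cluster and paralog number, and red for limma adjusted p under 0.05. Hoxd3 at -0.45 and Hoxd4 at -0.76 lie to the left of 0, Hoxd8 at 0.37 and Hoxc8 at 0.68 to the right, and Hoxd10 has the widest bar, with an SE of 0.75.

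**Figure D5:**
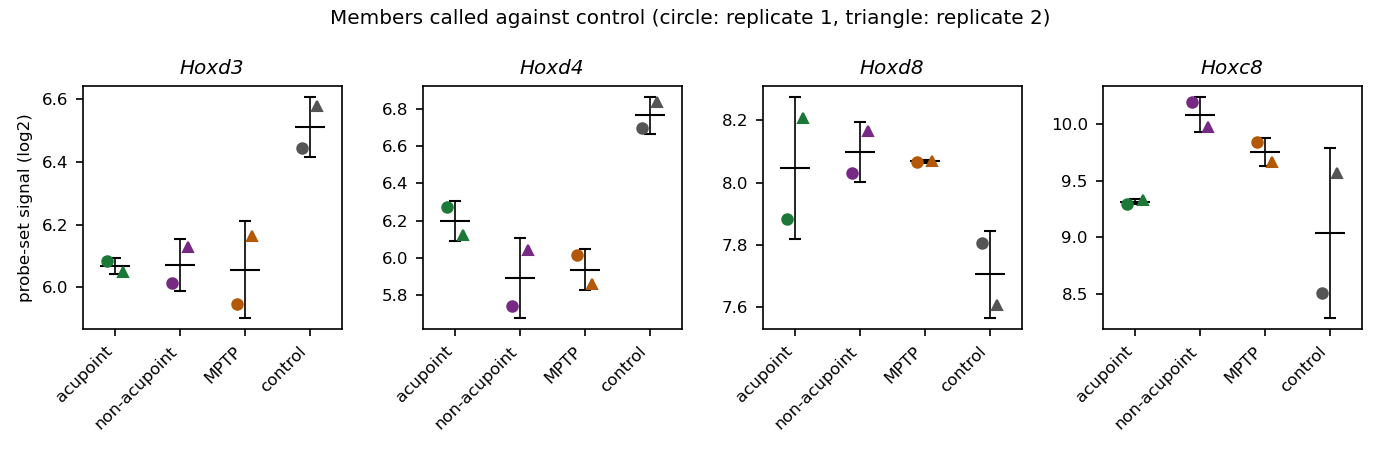
RMA signal (log2) on each array of the 4 Hox genes called against control, by group, with circles for replicate 1, triangles for replicate 2, and a dash and bar for the mean and SD of the 2 arrays (each panel has its own axis). Both control arrays stand above the treated arrays for Hoxd3 and Hoxd4 and below them for Hoxd8, while for Hoxc8 they are 8.51 and 9.57.

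Genes that act with the Hox genes were counted from lists chosen with earlier results of these data known. None of their members passed in the 3 needling comparisons. Their counts stand beside 16.8% of all genes called in MPTP minus control (13.7% higher, 3.1% lower), and 25.2% for the 3 groups together (19.9% higher, 5.35% lower). Among 8 TALE partners, which bind DNA together with Hox proteins, 0 passed in MPTP minus control, and Pknox1 rose by 0.28 in the 3 groups together (limma adjusted p = 0.0420). Among 17 Polycomb subunits, which hold Hox genes silent, Rnf2 rose by 0.43 in MPTP mice (adjusted p = 0.0322), and Phc1 fell by 0.32 in the 3 groups together. Among 10 Trithorax subunits and H3K27 demethylases, Kmt2a, the methyltransferase that keeps Hox genes active, fell by 0.53 in MPTP mice (adjusted p = 0.0139), and Psip1 rose by 0.40 in the 3 groups together. Among 17 retinoic acid genes 2 rose in MPTP minus control, a share near that of all genes. They were Aldh1a1, a retinoic acid synthesis enzyme, by 0.39 (adjusted p = 0.00747), and the receptor Rarb, by 0.43 (adjusted p = 0.0325). In MPTP minus control 0 of 12 other positional homeobox genes and 0 of 8 Fgf, Gdf and Wnt pathway genes passed, and likewise for the 3 groups together.

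Among 18 motor column and pool genes, 7 rose and 0 fell in MPTP minus control, while 13.7% of all genes tested rose, with a median difference of 0.19 against 0.06 over all genes. They were Chat (0.83) and Slc5a7 (0.80), the acetylcholine synthesis and choline uptake genes, and Epha4, Alcam, Pcdh10, Negr1 and Gfra1 (0.31 to 0.59). Etv4, a motor pool gene, fell by 0.47 in the 3 groups together. Chat and Slc5a7 are also among the spinal cord markers, whose mean was 10.03 and 9.96 on the MPTP arrays and 9.60 and 9.69 on the control arrays. Of 14 genes that flank the Hox clusters, 5 rose (Skap2, Snx10, Tax1bp1, Cbx5 and Lnpk, by 0.36 to 0.48) and Ttll6 beside Hoxb fell by 0.61. Lnpk lies beside the Hoxd cluster, where Hoxd3 and Hoxd4 fell.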

How the data were processed

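Total RNA of cervical cord, 300 ng a sample, was labelled as sense cDNA and read on 1 array per sample. The values are log2 signals that the authors deposited. Per the submitters' processing notes they come from Affymetrix Expression Console with RMA, and that they are on the log2 scale was read from their range. Of 35557 probe sets, 21789 carry 1 symbol, 1621 several and 12147 none in the annotation. For each gene the 1-symbol probe set with the highest mean over 8 arrays was used, above the 30th percentile. limma 3.58.1 (R 4.3.3) was fitted with 1 mean per group over all 8 arrays (4 residual degrees of freedom, eBayes with trend), with 2-sided tests, Benjamini-Hochberg adjustment over 16026 genes and calls at adjusted p under 0.05. The fit was tested on simulated data. Arrays limit precision by their number, 2 per group. Values on each array are given for members called in any comparison, for the 2 with the smallest p in each main comparison, for the 2 brightest of each cluster, and for Hoxa9 (plotted only), Hoxc10, Hoxa10, Hoxa11, Hoxc11 and Hoxd1, chosen after their values were seen. Members and lists were chosen with earlier results of these data known. The comparisons were fitted again under 12 alternatives and with each array left out (8 fits). Not every gene of the 4 clusters is reported here.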

Additional observations from a re-analysis of the deposited data

How the results depend on the processing

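The counts of Hox genes called were compared between the fits described above and their alternatives. In MPTP minus control (2 called), 4 were called with arrays centred on their medians and 5 with only the 2 groups compared. Array weights gave 5 and the muscle marker mean as a covariate gave 0. Of all 16026 genes, 2696 were called in the main fit, and 4246, 3698, 4159 and 0 in these alternatives, in the same order. In acupoint minus control (1 called), the count was 2 with a 50th percentile filter or probe sets of a gene averaged. It was 0 with only the 2 groups, array weights, the replicate number as a block or the muscle covariate. Over all genes, 1878 were called in the main fit, and 2083 and 1889 in the fits that gave 2. The fits that gave 0 called 135, 667, 1397 and 12 of all genes, in the order given. In non-acupoint minus control (3 called) cyclic loess gave 1 and the muscle covariate 0. For the 3 MPTP groups together (4 called) they gave 2 and 0. Over all genes, non-acupoint minus control had 3083 called in the main fit, 2517 with cyclic loess and 4 with the muscle covariate. For the 3 groups together, 4041 of all genes were called in the main fit and 3537 with cyclic loess. Hoxd8 in the 3 groups together turned to -0.0062 with that covariate. The causes were not tested. The number of all genes called changed between fits as well, including those that left out 1 array. The Hox counts are therefore not read as a result about the Hox genes. Leaving out each array in turn gave 0 to 5 calls in MPTP minus control, 0 to 5 in acupoint minus control, 0 to 5 in non-acupoint minus control, 2 to 7 for the 3 groups together, 0 to 0 in acupoint minus MPTP, 0 to 2 in non-acupoint minus MPTP and 0 to 2 in acupoint minus non-acupoint. Same-numbered arrays of different groups correlated at -0.33 to 0.17 in their deviations from group means. With 2 arrays per group the deviations are mirror images, so these correlations cannot show whether the numbers pair the samples. With the replicate block the counts for MPTP, non-acupoint and the 3 groups against control were 3, 3 and 3. Apart from Hoxd8, no called Hox difference changed sign in any of the 20 alternative fits. Centring on array medians moved the median of all genes in MPTP minus control to 0.22, against 0.06 as deposited, and that of the Hox genes to 0.17, against 0.01. The paralog 12 and 13 probe sets lie near the filter, so their differences are little above background, and 2 arrays per group limit every comparison.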

Other observations

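Probe sets of other transcripts in the Hox clusters, looked at after the Hox values were seen, were dim. Mean signals over the 8 arrays were 2.34 for Mir10a, 2.83 for Mir10b and 3.47 for Mir196a-2, below the filter, and 4.39 for Mir196a-1, 4.88 for Mir196b, 4.32 for Hottip and 5.26 for Hoxaas2. Of the 4 above the filter, none was called in MPTP minus control, with differences of -0.15, -0.12, 0.15 and 0.00 and limma adjusted p-values of 0.643 or more. The antisense transcript Hoxd3os1, which overlaps the start region of Hoxd3, differed by 0.05 (limma adjusted p = 0.843).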
